A study of Mus musculus with 20 samples.

Results

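The genes of the constitutive proteasome and its regulators were followed in BV-2 microglia of low and high age in culture, with and without LPS. Members were all protein-coding genes of the count table whose symbol starts with Psma to Psmg and a number, without the immunoproteasome genes *Psmb8*, *Psmb9* and *Psmb10*. This gave 47 of 55487 genes in the table, or of 21897 protein-coding ones. They hold 8 alpha subunits, 8 beta subunits, 6 ATPases, 14 genes named Psmd, 5 activators, 1 inhibitor and 4 chaperones of the core. The remaining gene, *Psmc3ip*, fits by its letters only, since it encodes a partner of PSMC3 that acts in meiotic recombination, and it is left out of the classes but included in the counts and medians over the 45 members tested. Of the members, 45 passed the filter on low counts. *Psma8*, the testis form of an alpha subunit, had 0 counts in all 20 libraries, and *Psmb11*, the thymus form of a catalytic beta subunit, had 0 to 3, so neither was tested (3 counts were worth at most 0.296 CPM).

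BV-2 is an immortalized, otherwise wild-type microglial line that was derived from mixed brain cultures of neonatal C57BL/6 mice. Aged BV-2 microglia are cells of this line after long-term cultivation, and young BV-2 microglia are its control cells at low passage. Each age was left untreated or received 100 ng/ml bacterial LPS for 6 hours, with 5 cultures in each of the 4 groups, numbered as replicates 1 to 5 by the batch number in their labels. Poly(A) RNA of each culture was sequenced with stranded libraries. All groups stem from 1 cell line, and nothing states that the aged cultures come from separate long-term cultivations, so p-values measure the spread between these cultures, which may be technical.

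The proteasome degrades proteins tagged with ubiquitin. Its core is a barrel of outer alpha rings, which gate the entry, and inner beta rings, in which *Psmb5*, *Psmb6* and *Psmb7* carry the chymotrypsin-like, caspase-like and trypsin-like sites. A regulatory particle caps the barrel: its ATPases (Psmc genes) unfold the substrate, and its non-ATPase subunits (most Psmd genes) bind ubiquitin chains and remove them. Other caps, such as PA28 (*Psme1* and *Psme2*, inducible by interferon), PA28 gamma (*Psme3*) and PA200 (*Psme4*), open the barrel without ATP, and in immune cells interferons and LPS are known to exchange the catalytic subunits for those of the immunoproteasome.

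Promoters of 4 members are shown, *Psmd10* for the largest LPS response of all, *Psme1* for PA28, and *Psmb6* and *Psmb5* for the catalytic subunits with the largest and the smallest response in young cultures. They run from 250 bases before to 30 after the start site (RefSeq, GRCm38.p6, 5′ to 3′). They belong to *Psme1* (chr14:55578244-55578523, plus strand), *Psmd10* (chrX:140956682-140956961, minus strand), *Psmb6* (chr11:70525107-70525386, plus strand) and *Psmb5* (chr14:54617966-54618245, minus strand). Capitals mark GAAA followed by any 2 bases and again GAAA (the core of an interferon-stimulated element) in *Psme1*, CCAAT in *Psmd10*, and TGACNNNGC (the core of the antioxidant element bound by NFE2L1 and NFE2L2) in *Psmb6* and *Psmb5*, read on either strand.
Psme1: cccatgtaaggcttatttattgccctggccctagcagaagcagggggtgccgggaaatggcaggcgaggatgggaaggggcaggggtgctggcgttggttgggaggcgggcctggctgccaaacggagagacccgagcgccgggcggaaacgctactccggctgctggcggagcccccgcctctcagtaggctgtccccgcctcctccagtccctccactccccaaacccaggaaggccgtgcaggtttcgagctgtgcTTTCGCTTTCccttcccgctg
Psmd10: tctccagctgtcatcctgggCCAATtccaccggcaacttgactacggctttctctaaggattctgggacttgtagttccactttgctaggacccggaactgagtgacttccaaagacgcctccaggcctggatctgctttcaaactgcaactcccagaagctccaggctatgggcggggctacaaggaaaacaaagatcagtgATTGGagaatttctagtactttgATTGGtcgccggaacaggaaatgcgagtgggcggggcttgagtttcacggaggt
Psmb6: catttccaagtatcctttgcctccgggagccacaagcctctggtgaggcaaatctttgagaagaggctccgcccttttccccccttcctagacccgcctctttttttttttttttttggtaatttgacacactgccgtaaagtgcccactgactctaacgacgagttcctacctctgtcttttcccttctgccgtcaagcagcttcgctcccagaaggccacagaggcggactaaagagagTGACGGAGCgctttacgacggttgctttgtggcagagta
Psmb5: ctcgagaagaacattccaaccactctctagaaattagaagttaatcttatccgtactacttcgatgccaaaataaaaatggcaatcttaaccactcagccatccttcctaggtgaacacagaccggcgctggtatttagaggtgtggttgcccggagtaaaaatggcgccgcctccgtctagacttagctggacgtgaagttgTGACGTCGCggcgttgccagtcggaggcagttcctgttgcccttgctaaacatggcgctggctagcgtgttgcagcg
The interferon motif of *Psme1* starts at base 10 after the start site, the CCAAT motifs of *Psmd10* at -230, -47 and -24, and the antioxidant motif at -9 in *Psmb6* and -47 in *Psmb5*. A promoter was listed for 38 of the 46 members other than *Psmc3ip*, with 41 promoters in all. TGACNNNGC was in 6 of the 41 (14.6%) against 12.4% of all 32851 promoters of this length, CCAAT in 13 (31.7% against 37.4%), and the interferon motif, searched after the values were seen, in 5 (12.2% against 3.44%). These 5 belong to *Psmb3*, *Psmd4*, *Psmd9*, *Psme1* and *Psmg4*, of which *Psmd9* and *Psmg4* were not called higher under LPS at either age. Neither of the listed promoters of *Psme2* held any of these letters. These matches are descriptions of letters within a window, not sites of binding.

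Libraries held 11371508 to 16829292 counts. Of 10 microglial markers, 9 were above 1 CPM (counts scaled to a fixed total per library, by TMM) in every library, and *Cx3cr1*, a chemokine receptor of microglia, was at 0 to 1.73 CPM. The summed markers of neurons, astrocytes, oligodendrocytes and fibroblasts stayed at or below 1.78 CPM in all libraries, and of the 4 endothelial markers only *Kdr* was above 1 CPM in all libraries (66.1 to 112 CPM). Cultures numbered 5 had the highest CPM of their group in most members. This held for 32 of the 45 members tested in young untreated, 29 in aged untreated, 29 in young LPS-treated and 30 in aged LPS-treated cultures. How often replicate 5 was the highest over all genes was not counted. Counts of calls without this replicate are therefore given beside the results they change. In bulk RNA, fewer cells of one kind and less RNA per cell cannot be told apart.

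Together the members held 0.671% ± 0.0306 (SD, n = 5) of all counts in young untreated, 0.715% ± 0.0351 in aged untreated, 0.796% ± 0.0472 in young LPS-treated and 0.805% ± 0.0392 in aged LPS-treated cultures. Per length of exons, as RPKM (CPM divided by the exon length in kilobases), the levels of core subunits in young untreated cultures ran from 25.3 ± 1.74 (SD, n = 5) for *Psmb1* and 27.6 ± 3.22 for *Psma3* up to 141 ± 8.99 for *Psma6* and 138 ± 6.52 for *Psmb5*. Their merged exons measured 4595, 3894, 1234 and 899 bases in this order. ATPases ran from 29.3 ± 1.71 for *Psmc2* to 134 ± 11 for *Psmc1*. The activator *Psme3* (87.4 ± 1.98) lay above *Psme1* (34 ± 3.31) and *Psme2* (30.9 ± 2.64), which lay close together, and above *Psme4* (14.6 ± 0.939). Low levels were found for the inhibitor and part of the chaperones, and for *Psme2b* (3.75 ± 0.838), with 5.18 ± 0.233 for *Psmd9*, 8.21 ± 0.426 for *Psmf1* and 13 ± 0.557 for *Psmd5*. Exon lengths count the union of all annotated exons, so genes with long alternative exons are understated on this scale. The rankings above depend on these lengths, which were 7248, 6441 and 7230 bases for *Psmd9*, *Psmf1* and *Psmd5*.

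The first comparison asked how the proteasome genes respond to LPS at each age. In young cultures 35 of the 45 members tested rose and 2 fell (edgeR's quasi-likelihood test, adjusted p below 0.05 over 12799 genes), where 64.6% of all genes were called, 31.2% as higher and 33.5% as lower. The median log2 fold change of the members was 0.41, beside -0.011 for all genes. Without *Psmc3ip*, 35 of 44 rose and 1 fell in young cultures, with a median of 0.42. In aged cultures 31 rose and 2 fell, with 54.4% of all genes called (27.5% higher and 26.9% lower) and a median of 0.27 beside 0.00051. In 32 members every young LPS-treated culture lay above every young untreated one, a pattern seen in 23.9% of all genes. In aged cultures this held for 27 members (21% of all genes). Without *Psme1*, *Psme2*, *Psme2b* and *Psmd10*, left out after their values were seen, and without *Psmc3ip*, medians were 0.40 in young and 0.26 in aged cultures. Scaling by library sizes alone moved the median of all genes to -0.23 in the young and -0.16 in the aged response, and then 28 members rose and 5 fell in young and 17 rose and 6 fell in aged cultures. Of the genes called, 48.2% were higher in young cultures under TMM and 27.3% under library sizes alone, and in aged cultures these shares were 50.6% and 28.4%. No called member changed sign under library sizes alone. The distance of the members' median from that of all genes was 0.42 in young and 0.27 in aged cultures under both scalings. A change of scaling shifts all genes by nearly the same amount, so this distance could hardly change and does not test the scaling. Without replicate 5, 35 members rose and 2 fell in young and 32 rose and 1 fell in aged cultures. Of all genes, 7718 and 6217 were called in these fits, 48.4% and 50.8% of them higher.

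**Figure D1:**
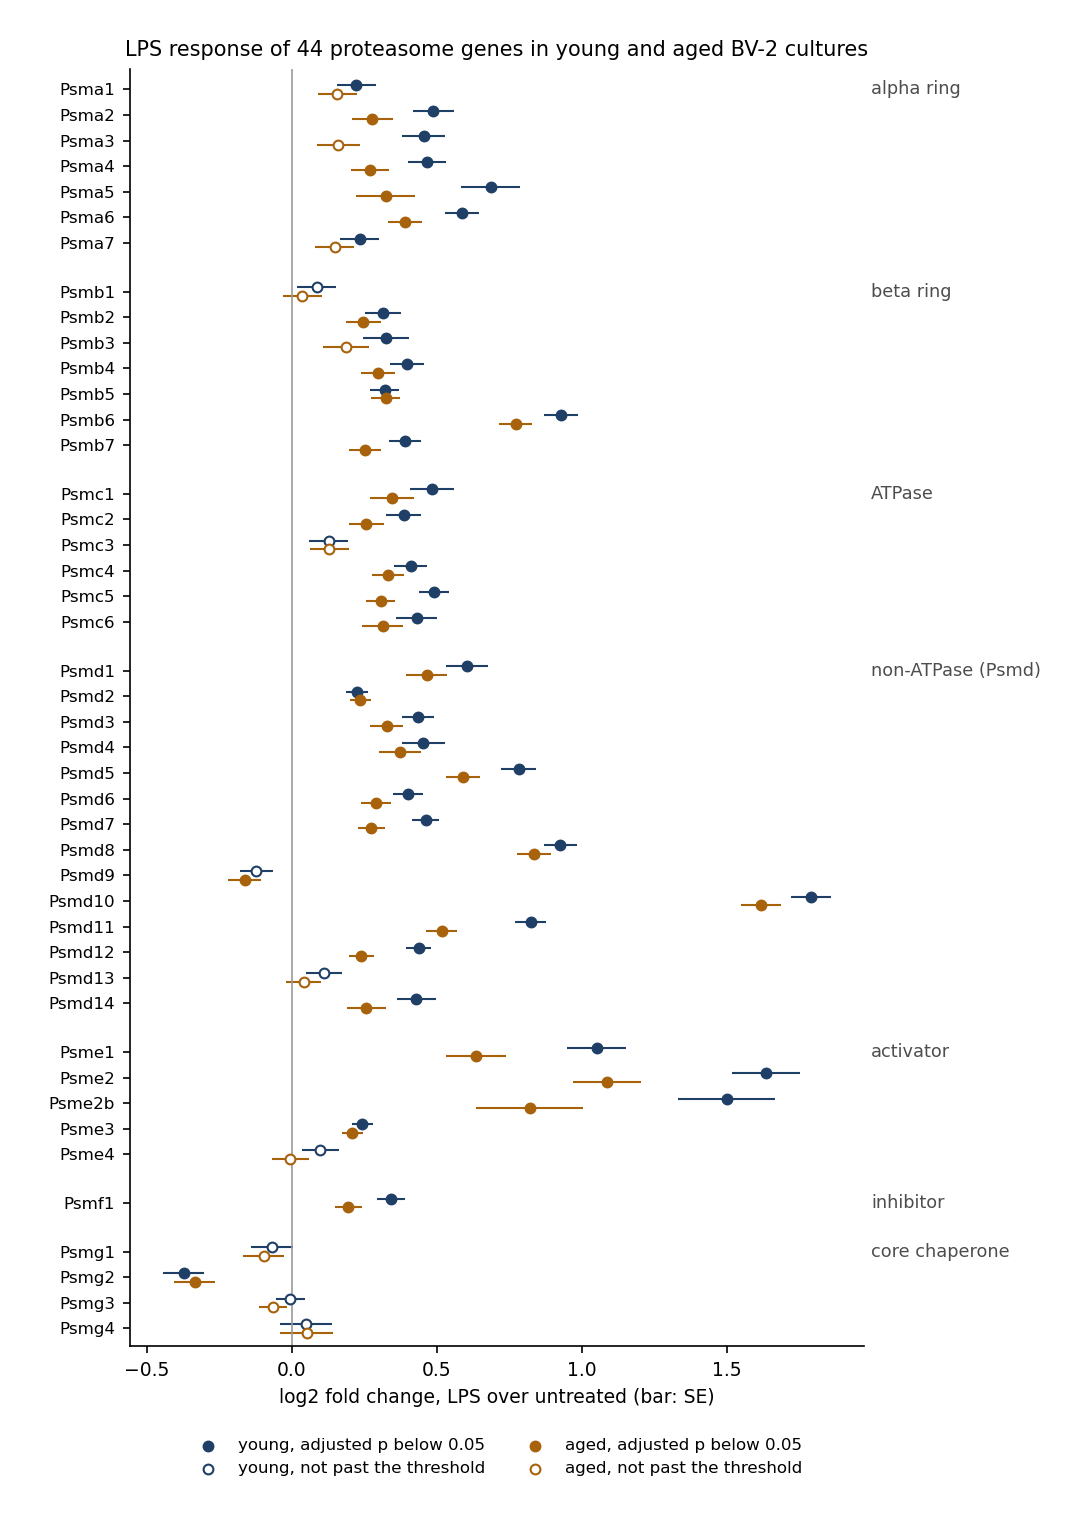
Log2 fold change of LPS over untreated cultures (x axis, bar: SE) for the 44 members tested other than *Psmc3ip* (y axis), ordered by class, in young (blue) and aged (brown) cultures, with filled points where the adjusted p is below 0.05. Most points lie between 0 and 1, *Psmd10*, *Psme1*, *Psme2* and *Psme2b* lie farthest to the right in young cultures, the core chaperones lie near or below 0, and the aged point mostly lies left of the young one.

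Among the catalytic subunits, the caspase-like *Psmb6* had the largest LPS response. In young cultures *Psmb6* had 263, 231, 229, 229 and 251 CPM untreated (replicates 1 to 5, in this order throughout) and 467, 461, 455, 421 and 483 CPM under LPS (log2 fold change 0.93, SE 0.0581, adjusted p = 3.07e-12). The 5 aged cultures had 239, 227, 256, 224 and 268 CPM untreated and 415, 394, 406, 399 and 458 CPM under LPS (log2 fold change 0.77, SE 0.058, adjusted p = 1.35e-10). At both ages the groups did not overlap, a rise of 1.9-fold in young and 1.71-fold in aged cultures. The chymotrypsin-like *Psmb5*, whose transcript shares stretches with pseudogenes as given below, rose less, from 126, 125, 119, 118 and 133 to 145, 162, 154, 145 and 169 CPM in young cultures (log2 fold change 0.32, SE 0.0503, adjusted p = 7.56e-06), and from 121, 121, 128, 117 and 131 to 151, 158, 148, 153 and 164 CPM in aged cultures (log2 fold change 0.32, SE 0.0502, adjusted p = 1e-05). Its responses at the 2 ages differed by 0.0037 (SE 0.071, adjusted p = 0.992), the smallest difference of the 3 catalytic subunits. The trypsin-like *Psmb7* rose from 235, 247, 235, 256 and 260.4 to 299, 331, 321, 309 and 356 CPM in young cultures (log2 fold change 0.39, SE 0.0543, adjusted p = 1.38e-06). In aged cultures it started higher, at 284, 271, 269.7, 273 and 316 CPM, and reached 340.5, 329, 318, 333 and 362 CPM (log2 fold change 0.25, SE 0.0541, adjusted p = 0.000424). The inducible counterparts of these subunits are described with the pathway genes below.

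The other beta subunits and the alpha ring changed by less than *Psmb6* at both ages. Of the 7 beta subunits tested, 6 rose in young cultures (median 0.32) and 5 in aged ones (median 0.25). *Psmb1* was below the threshold at both ages, at 0.085 (SE 0.0661) in young and 0.036 (SE 0.0659) in aged cultures, and with the replicate number as a block it passed in young ones (adjusted p = 0.0486). In aged cultures *Psmb3* also missed the threshold, at 0.19 (SE 0.0792, adjusted p = 0.0523), and passed with the block (adjusted p = 0.025). All 7 alpha subunits tested rose in young cultures, from 0.22 for *Psma1* to 0.69 for *Psma5*, with a median of 0.47. In aged cultures 4 of the 7 rose, with a median of 0.27. There *Psma1* (0.16, SE 0.0664, adjusted p = 0.0513), *Psma3* (0.16, SE 0.0747, adjusted p = 0.0753) and *Psma7* (0.15, SE 0.0676, adjusted p = 0.0703) missed the threshold, and all 3 passed with the block (adjusted p = 0.0154, 0.00354 and 0.0144).

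The ATPases that unfold substrates rose as a group. Of the 6, 5 rose at each age, with medians of 0.42 in young and 0.31 in aged cultures. The exception was the same gene at both ages, *Psmc3*, at 0.13 (SE 0.0667, adjusted p = 0.102) in young and 0.13 (SE 0.0666, adjusted p = 0.107) in aged cultures, and it passed with the block at both (adjusted p = 0.0276 and 0.0283).

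The Psmd genes hold subunits of the base and lid and 3 chaperones that help to assemble the base, and these chaperones moved apart from each other. *Psmd10* (gankyrin), a chaperone that binds an ATPase and is also known as a partner of cell-cycle proteins, had the largest LPS response of all members. In young cultures it had 29.9, 29.3, 28.1, 27.4 and 28.3 CPM untreated and 109, 104, 91.8, 91.5 and 98.7 CPM under LPS (log2 fold change 1.79, SE 0.069, adjusted p = 7.86e-16). The aged cultures had 32.7, 26.9, 28.1, 25.8 and 34.4 CPM untreated and 91.2, 91.2, 87.3, 91.1 and 92.4 CPM under LPS (log2 fold change 1.62, SE 0.0685, adjusted p = 6.91e-15). Every treated culture was at least 2-fold above every untreated one of its age, and the fitted rise was 3.46-fold in young and 3.07-fold in aged cultures. *Psmd5*, another chaperone of the base, rose by 0.78 (SE 0.0593, adjusted p = 8.4e-11) in young and 0.59 (SE 0.059, adjusted p = 1.53e-08) in aged cultures. *Psmd9*, the remaining base chaperone, went the other way. It had 36.8, 36.6, 37.8, 36.3 and 40.4 CPM in young untreated and 34.1, 33.5, 33.9, 33.1 and 37.9 CPM in young LPS-treated cultures (log2 fold change -0.12, SE 0.0574, adjusted p = 0.0668, and 0.0412 with the block). In aged cultures *Psmd9* went from 38, 39.5, 39, 41.3 and 42.4 to 34.9, 39.3, 36.5, 32.1 and 36.1 CPM (log2 fold change -0.16, SE 0.0568, adjusted p = 0.0191), and this call was lost without replicate 4 and without replicate 5 (adjusted p 0.0155 to 0.133 over the 5 fits that leave out 1 replicate number). The treated and untreated cultures overlapped at both ages.

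Among subunits of the base and lid proper, 15 of 17 regulatory particle genes (the Psmc and Psmd genes without the 3 chaperones) rose at each age, and none of the others was below 0. *Psmd8* and *Psmd11*, both lid subunits, led them in young cultures. *Psmd8* rose from 276, 245, 229, 219.5 and 257 to 490.3, 488, 439.9, 426 and 487 CPM in young cultures (log2 fold change 0.93, SE 0.0576, adjusted p = 2.71e-12), and from 244, 232, 247, 228 and 253 to 431, 419, 438, 413 and 449 CPM in aged cultures (log2 fold change 0.84, SE 0.0575, adjusted p = 3.03e-11). *Psmd11* rose from 161, 167, 167, 185 and 180.0 to 281, 326, 293, 302 and 318 CPM in young cultures (log2 fold change 0.82, SE 0.053, adjusted p = 4.71e-12). In aged cultures *Psmd11* went from 201, 199, 174, 196 and 197 to 292, 275, 263, 265 and 288 CPM (log2 fold change 0.52, SE 0.0527, adjusted p = 2.18e-08). Neither gene overlapped between treated and untreated cultures of one age. The lid subunit *Psmd13* was below the threshold at both ages, at 0.11 (SE 0.0612) and 0.040 (SE 0.061), and *Psmd2*, the member with the most counts and a base scaffold that binds ubiquitin receptors and shuttles, rose by 0.22 and 0.24.

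**Figure D2:**
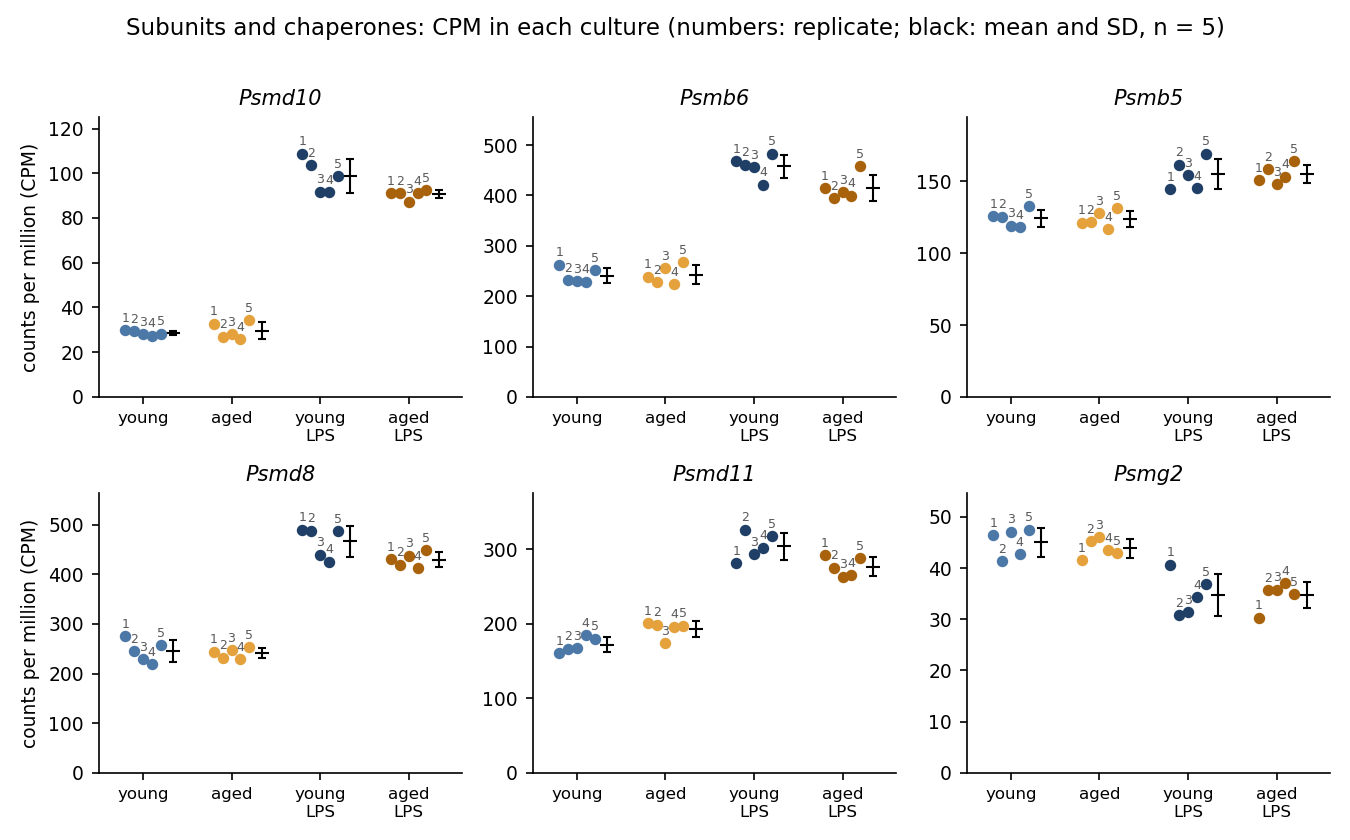
CPM (y axis, from 0) in each of the 20 cultures for *Psmd10*, *Psmb6*, *Psmb5*, *Psmd8*, *Psmd11* and *Psmg2*, by group (x axis). Points carry their replicate number and the black bar is the mean and SD of 5 cultures. *Psmd10*, *Psmb6*, *Psmd8* and *Psmd11* lie clearly above the untreated cultures under LPS at both ages, and *Psmg2* lies lower.

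The activators divided by kind. Both PA28 genes rose at both ages, whereas PA28 gamma rose slightly and PA200 did not pass the test. *Psme1* had 86.5, 75.8, 74.1, 66.3 and 73 CPM in young untreated and 179, 174, 154, 123 and 149.5 CPM in young LPS-treated cultures (log2 fold change 1.05, SE 0.102, adjusted p = 5.79e-09). In aged cultures it had 63.8, 59.4, 73.4, 57.5 and 66.6 CPM untreated and 101, 87.2, 125, 89.3 and 94.8 CPM under LPS (log2 fold change 0.63, SE 0.103, adjusted p = 1.75e-05). Its treated cultures lay above all untreated ones of the same age. *Psme2* had 60.6, 54.8, 52.6, 48 and 56.3 CPM in young untreated and 177, 198, 172, 131 and 168 CPM in young LPS-treated cultures (log2 fold change 1.64, SE 0.117, adjusted p = 3.09e-11). Its aged cultures had 44, 41.5, 56.2, 42.6 and 48.3 CPM untreated and 93.8, 85.4, 133, 87.1 and 95.4 CPM under LPS (log2 fold change 1.09, SE 0.117, adjusted p = 5.14e-08). In this gene, too, treated and untreated cultures of one age did not overlap. In per-length terms *Psme1* had the slightly higher mean in young untreated cultures. In young LPS-treated ones *Psme2* reached 96 ± 13.9 RPKM (SD, n = 5) against 70.5 ± 9.94 for *Psme1*. They are neighbours on chromosome 14 (*Psme1* at 55578123 to 55581529 on the plus strand, *Psme2* at 55587441 to 55591113 on the minus strand, GRCm38).

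*Psme2b*, a copy of *Psme2*, shares 68.7% of its 50-base stretches with that gene, so its counts could be reads of *Psme2* and are uncertain. It had 2.97, 2.3, 3.92, 2.7 and 3.79 CPM in young untreated and 9.09, 10.5, 8.97, 6.86 and 9.21 CPM in young LPS-treated cultures (log2 fold change 1.50, SE 0.167, adjusted p = 4.98e-08). In aged cultures it had 2.26, 2.09, 2.28, 2.69 and 2.53 CPM untreated and 4.56, 3.22, 6, 3.25 and 3.83 CPM under LPS (log2 fold change 0.82, SE 0.183, adjusted p = 0.000624), so in level it stayed far below *Psme2* throughout. *Psme3* rose from 258, 256, 249, 264 and 262 to 318, 302, 294, 299 and 313 CPM in young cultures (log2 fold change 0.24, SE 0.0362, adjusted p = 3.81e-06) and from 276, 282, 265, 275 and 268 to 306, 325, 317, 323 and 308 CPM in aged cultures (log2 fold change 0.21, SE 0.0362, adjusted p = 3.91e-05). That is a rise of 1.18-fold and 1.16-fold, small but without overlap between treated and untreated cultures. *Psme4* had 115, 123, 114, 133 and 126 CPM in young untreated and 115, 142, 124, 135 and 139 CPM in young LPS-treated cultures (log2 fold change 0.099, SE 0.063, adjusted p = 0.177). Its aged cultures had 138, 137, 119, 123 and 137 CPM untreated and 143, 130.4, 125, 122 and 131 CPM under LPS (log2 fold change -0.0055, SE 0.0628, adjusted p = 0.952), with overlap at both ages.

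**Figure D3:**
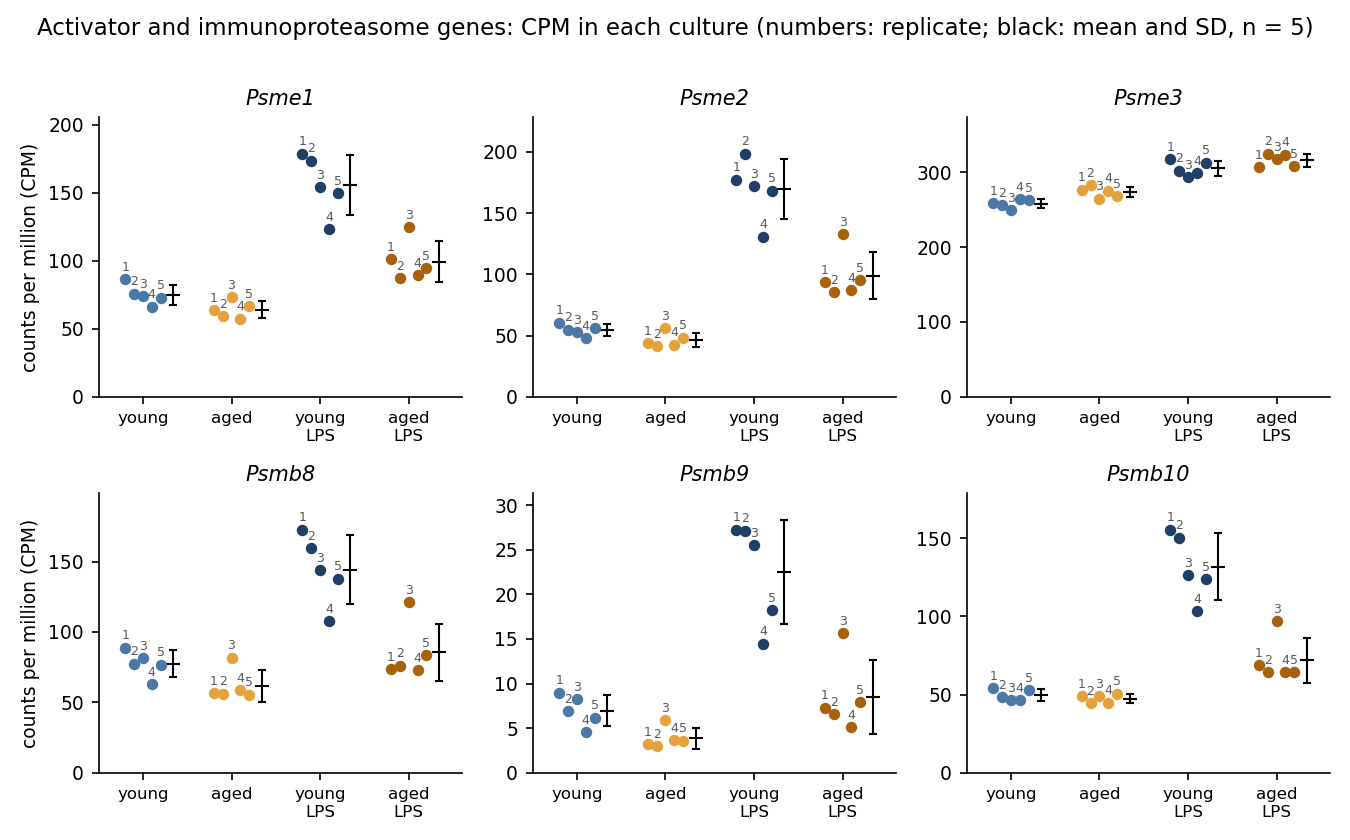
CPM (y axis, from 0) in each of the 20 cultures for the activator genes *Psme1*, *Psme2* and *Psme3* and the immunoproteasome genes *Psmb8*, *Psmb9* and *Psmb10*, by group (x axis), with replicate numbers and the mean and SD of 5 cultures in black. Under LPS the aged mean lies below the young one in all genes shown but *Psme3*, replicate 3 is the highest aged LPS-treated culture in those 5 genes, and replicate 4 is the lowest young LPS-treated one.

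The inhibitor *Psmf1* (PI31), which binds the core, rose from 55.7, 49.1, 51.7, 52.6 and 55.5 to 65.1, 68.5, 65.6, 69.2 and 66.7 CPM in young cultures (log2 fold change 0.34, SE 0.0469, adjusted p = 1.16e-06). In aged cultures it went from 58.4, 53.9, 61.4, 58.4 and 60 to 64.4, 64.2, 67.3, 70 and 68.5 CPM (log2 fold change 0.19, SE 0.0465, adjusted p = 0.00116). The 4 chaperones that build the alpha ring, *Psmg1* to *Psmg4*, did not join the rise. None was called higher at either age in edgeR, and none had an unadjusted p below 0.05 as higher. Of the 4, 1 fell at both ages, and their medians were -0.037 in young and -0.081 in aged cultures. *Psmg2*, the partner of *Psmg1* in the chaperone pair that scaffolds the ring, was the one that fell. It had 46.4, 41.3, 47.1, 42.7 and 47.5 CPM in young untreated and 40.7, 30.8, 31.4, 34.3 and 36.8 CPM in young LPS-treated cultures (log2 fold change -0.37, SE 0.0713, adjusted p = 8.36e-05). In aged cultures *Psmg2* had 41.6, 45.3, 46, 43.5 and 42.9 CPM untreated and 30.3, 35.6, 35.8, 37.1 and 34.9 CPM under LPS (log2 fold change -0.34, SE 0.0709, adjusted p = 0.000357). Treated and untreated cultures did not overlap at either age. Its partner *Psmg1* was at -0.068 (SE 0.0714) and -0.098 (SE 0.0704), *Psmg3* at -0.0056 (SE 0.0497) and -0.065 (SE 0.0493) and *Psmg4* at 0.048 (SE 0.0897) and 0.051 (SE 0.0899), none past the threshold. *Psmc3ip*, the gene that fits by letters alone, fell in young cultures (13.6, 12.9, 10.9, 10.6 and 15.9 CPM untreated against 10.4, 8.79, 8.48, 7.01 and 9.87 CPM under LPS, log2 fold change -0.52, SE 0.124, adjusted p = 0.000809), and in aged cultures it was at -0.12 (SE 0.119, adjusted p = 0.4).

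The second comparison set untreated aged against untreated young cultures. By the study's methods, the aged cells were cultivated on from a later passage than the control cells and then frozen as aliquots. Time in culture, starting passage and stock of cells therefore cannot be told apart here. Between untreated aged and young cultures 6 of the 45 members tested were higher in aged cells and none was lower, where 11.5% of all genes were called, 3.71% as higher and 7.81% as lower. For the lower direction, 8 members were below 0 and 3 of them had an unadjusted p below 0.05 in edgeR, while DESeq2 called none. The median was 0.077 beside -0.014 for all genes, so the differences were small. With the replicate number as a block 10 members were higher and none lower (6% of all genes called higher), the 4 gained being *Psma3*, *Psmd7*, *Psmd14* and *Psmg1*. The count depended on single replicate numbers: 1, 1, 2, 3 and 4 members were called higher without replicates 1, 2, 3, 4 and 5. In the same order, 1193, 548, 1131, 989 and 984 of all genes were called, of which 31%, 21.9%, 28%, 29.3% and 29.3% were higher.

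The 6 genes were a catalytic subunit, an ATPase, 3 lid subunits and the inhibitor. *Psmc6* (log2 fold change 0.22, SE 0.0701, adjusted p = 0.0413) had 133, 141, 122, 133 and 148 CPM in young and 166, 151, 148, 150.1 and 176 CPM in aged cultures. *Psmd12* had 118, 121, 113, 119 and 124 CPM in young and 136, 135, 136, 134 and 142 CPM in aged cultures (log2 fold change 0.20, SE 0.043, adjusted p = 0.0042). It was the only one called in each of the 5 fits that left out 1 replicate number (adjusted p 0.0119 to 0.0284). *Psmb7* was higher by 0.20 (SE 0.0542, adjusted p = 0.0204), with young cultures of 235 to 260.4 CPM and aged ones of 269.7 to 316 CPM. *Psmd6* was higher by 0.19 (SE 0.051, adjusted p = 0.0204), from 102, 97, 100.3, 92.4 and 108 to 116, 111, 113, 108 and 120.1 CPM. *Psmd11* was higher by 0.17 (SE 0.0528, adjusted p = 0.0388) and *Psmf1* by 0.14 (SE 0.0467, adjusted p = 0.0482). Leaving out a replicate number gave adjusted p values of 0.0421 to 0.126 for *Psmc6*, 0.0325 to 0.0993 for *Psmd6*, 0.03 to 0.0845 for *Psmb7*, 0.0333 to 0.205 for *Psmd11* and 0.0644 to 0.197 for *Psmf1*, which was lost in all 5 fits. Young and aged cultures did not overlap for *Psmb7*, *Psmd6* and *Psmd12*, and did for *Psmc6*, *Psmd11* and *Psmf1*. The uncalled *Psme3* was also higher without overlap, and an uncalled gene of the regulatory particle was lower without overlap. The share of all genes with this pattern is not given for this comparison, so no result about the members is drawn from it. Among the catalytic subunits *Psmb5* (-0.0054, SE 0.0503) and *Psmb6* (0.013, SE 0.0578) differed by less than their errors. The PA28 genes pointed down without passing the test, at -0.23 (SE 0.103, adjusted p = 0.165) for *Psme1* and -0.23 (SE 0.118, adjusted p = 0.236) for *Psme2*. *Psme3* was at 0.084 (SE 0.0362, adjusted p = 0.143) and *Psme4* at 0.095 (SE 0.0627, adjusted p = 0.366).

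The third comparison set aged against young cultures under LPS. Here 3 of the 45 members tested were lower in aged cells, namely *Psme1*, *Psme2* and the copy *Psme2b*, and 1, *Psmc3ip*, was higher, where 29% of all genes were called (14% higher and 15% lower). The median of the members was -0.035 beside 0.0085 for all genes. *Psme2* was 41.5% lower in aged cultures (log2 fold change -0.77, SE 0.114, adjusted p = 2.26e-05), *Psme1* 36.1% lower (log2 fold change -0.65, SE 0.101, adjusted p = 4.74e-05), and the uncertain *Psme2b* was at -1.08 (SE 0.164, adjusted p = 3.1e-05). All 3 were lower in aged cultures in each of the 5 batches. For *Psme1* and *Psme2* a single culture made the groups overlap: aged replicate 3, with 125 and 133 CPM, lay above young replicate 4, with 123 and 131 CPM. Both calls held in each of the 5 fits that left out 1 replicate number, with log2 fold changes of -0.75 to -0.56 for *Psme1* and -0.90 to -0.66 for *Psme2*.

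The other activators did not pass in this comparison, *Psme3* at 0.050 (SE 0.0362, adjusted p = 0.329) and *Psme4* at -0.0088 (SE 0.063, adjusted p = 0.935), nor did the inhibitor *Psmf1* at -0.0032 (SE 0.0467, adjusted p = 0.969). Of the catalytic subunits, *Psmb5* was at -0.0017 (SE 0.0502, adjusted p = 0.985) and *Psmb7* at 0.059 (SE 0.0541, adjusted p = 0.465), and *Psmb6* missed the threshold at -0.14 (SE 0.0575, adjusted p = 0.0664) and passed with the block (adjusted p = 0.00891). The block raised the count of lower members from 3 to 10, adding *Psma2*, *Psma3*, *Psma5*, *Psma6*, *Psmb6*, *Psmd8* and *Psmd11*, where 17.2% of all genes were called lower. The alpha subunits had a median of -0.11. Without replicate 5, 2 members were higher and 5 lower, where 3130 of 12828 genes were called, 46.9% of them higher. Without replicate 1 there were 5 lower, where 3563 of 12829 genes were called, 49.5% of them higher. In the fits without replicate 2 or 4 none was higher by the adjusted p of edgeR, where 2156 and 3154 genes were called, 44.5% and 47.4% of them higher. Scaling by library sizes alone put the median of all genes at 0.088 and that of the members at 0.045, with 5 members higher and 3 lower and 70.1% in place of 48.3% of the genes called being higher, so the sign of the members' median depends on the scaling while *Psme1*, *Psme2* and *Psme2b* stayed lower. *Psmc3ip* was higher in aged LPS-treated cultures (10.7, 12.4, 12.6, 13.7 and 11.6 CPM against 10.4, 8.79, 8.48, 7.01 and 9.87 CPM in young ones, log2 fold change 0.46, SE 0.126, adjusted p = 0.00853), a call lost without replicate 2 and without replicate 4.

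**Figure D4:**
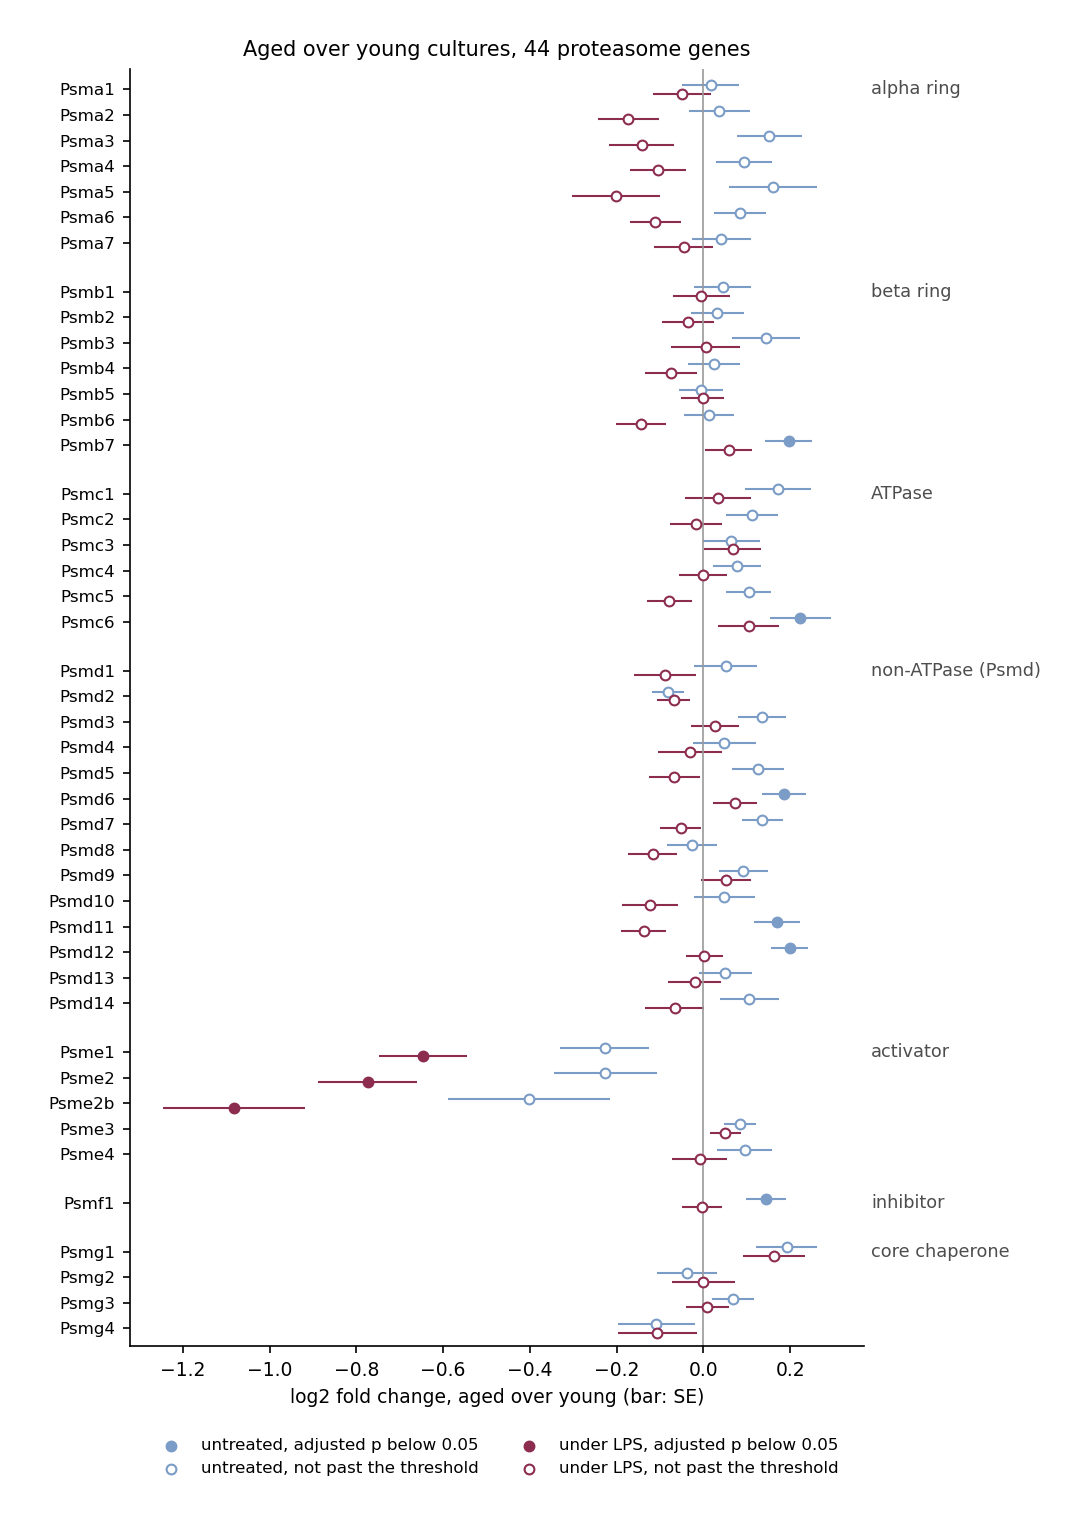
Log2 fold change of aged over young cultures (x axis, bar: SE) for the 44 members tested other than *Psmc3ip* (y axis), untreated (light blue) and under LPS (dark red), with filled points where the adjusted p is below 0.05. Untreated points mostly lie right of 0 and points under LPS near or left of it, and *Psme1*, *Psme2* and *Psme2b* lie farthest left under LPS.

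The last comparison tested whether the LPS response itself differed between the ages (the interaction, aged minus young response). The estimate was below 0, a smaller rise or larger fall in aged cultures, for 39 of the 45 members tested (34 with library sizes alone), with a median of -0.12 (-0.12 without *Psmc3ip*) beside 0.019 for all genes. In 21 members the difference was below 0 in all 5 batches, a pattern found in 10.8% of all genes. In all, 2 members passed the test, both lower, where 6.39% of all genes were called (4.12% higher and 2.27% lower), and with the replicate number as a block 12 passed, all lower (3.41% of all genes called lower). This contrast and the others use the same 20 cultures, so a gene that started higher in untreated aged cells has by construction a smaller rise to the same level.

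*Psmd11* passed at -0.31 (SE 0.0744, adjusted p = 0.0139), with adjusted p 0.0166 to 0.179 over the 5 fits that left out 1 replicate number. It started higher in untreated aged cultures, as given above, and under LPS it was at -0.14 (SE 0.0525, adjusted p = 0.0527) against young cultures, which passed with the block (adjusted p = 0.0286). *Psme2* passed at -0.55 (SE 0.164, adjusted p = 0.0474), and in 4 of these 5 fits it did not (adjusted p 0.0186 to 0.248). The block added *Psma2*, *Psma3*, *Psma4*, *Psma5*, *Psma6*, *Psmc5*, *Psmd7*, *Psmd12*, *Psmd14* and *Psme1*. Of these, *Psma3* was at -0.29 (SE 0.106, adjusted p = 0.109 without and 0.00451 with the block), *Psma5* at -0.36 (SE 0.143, adjusted p = 0.15 and 0.0162), and *Psme1* at -0.42 (SE 0.144, adjusted p = 0.0926 and 0.0216). *Psmb6* (-0.16, SE 0.0815, adjusted p = 0.305), *Psmb7* (-0.14, SE 0.0766, adjusted p = 0.338), *Psme3* (-0.034, SE 0.0512, adjusted p = 0.804), *Psme4* (-0.10, SE 0.0889, adjusted p = 0.592) and *Psmf1* (-0.15, SE 0.066, adjusted p = 0.217) passed in neither fit. Library sizes alone as the scaling left no member called at an adjusted p below 0.05 and a median of -0.058, against 0.079 for all genes, while 81.3% in place of 64.4% of the genes called were higher. DESeq2 called 5 members, all lower, where it called 1041 genes, 56.8% of them higher. Without replicates 1 to 5 in turn, 1, 0, 3, 1 and 1 members were called, all lower. In the same order, 697, 189, 662, 532 and 410 of all genes were called, of which 74%, 78.3%, 58.6%, 63.3% and 71% were higher.

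Class means per culture, as mean log2 CPM, scaled by TMM, were smaller in their LPS rise in aged cultures in all 5 batches for each class but the core chaperones. With library sizes alone this held for the alpha, Psmd and activator classes, but for the beta ring and the ATPases in 3 of 5 batches, with mean differences of the responses of -0.030 in place of -0.091 and -0.046 in place of -0.11. The LPS rise of the 44 members other than *Psmc3ip* was 0.46 ± 0.055 (SD, n = 5 batches) in young and 0.31 ± 0.0099 in aged cultures. The alpha ring rose by 0.45 ± 0.060 in young and 0.25 ± 0.039 in aged cultures, and the ranges over batches did not overlap. With library sizes alone these rises were 0.22 and 0.085, and the ranges overlapped. For the beta ring the values were 0.39 ± 0.074 and 0.30 ± 0.034, with overlapping ranges. The Psmd genes rose by 0.55 ± 0.041 and 0.42 ± 0.013, and the activators by 0.90 ± 0.13 and 0.53 ± 0.13. The sign of each class's LPS change was the same with DESeq2 size factors and with library sizes alone. The core chaperones changed by -0.10 ± 0.031 and -0.11 ± 0.067 on this scale.

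**Figure D5:**
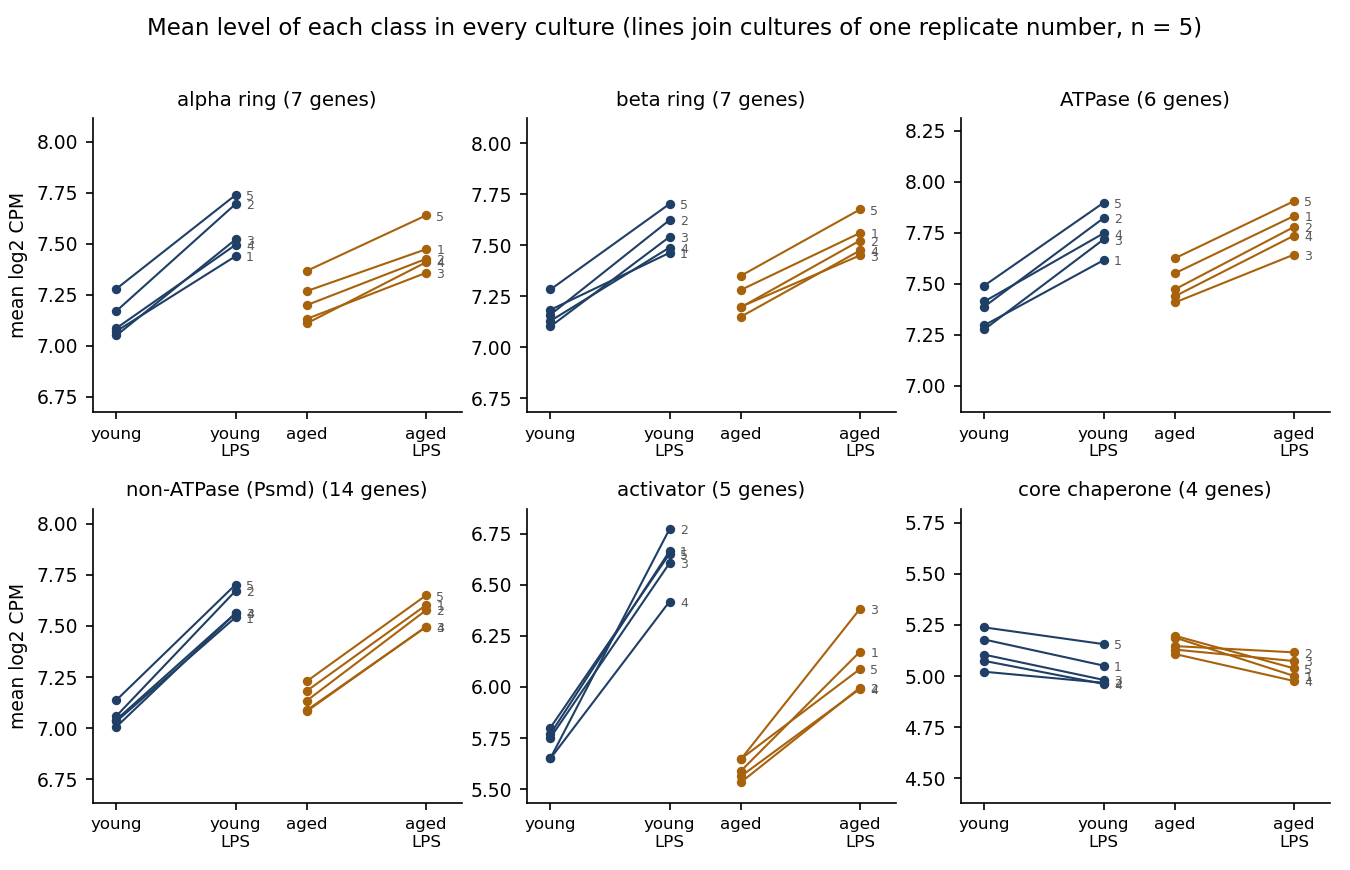
Mean log2 CPM (y axis, panels span the same range) of the genes of 6 classes in every culture, untreated and under LPS, with lines that join cultures of one replicate number in young (blue) and aged (brown) cells. All classes but the core chaperones rise in every batch, the slopes are flatter in aged cultures for the alpha ring and the activators, and replicate 5 is the highest in the alpha, beta and ATPase panels.

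Other genes of the pathway were taken from a list of 32, of which *Paaf1* was not matched and 31 were tested. Of these, 2 were higher in aged untreated cultures and none lower by the adjusted p of edgeR, with 6 below 0 at an unadjusted p below 0.05. With the block 3 were higher and 3 lower, among the latter *Psmb8* and *Psmb9*. Of all genes, 3.71% were called higher and 7.81% lower without the block. With the block, 2204 of 12799 genes were called, 34.8% of them higher. LPS raised 23 and lowered 4 in young cultures (31.2% and 33.5% of all genes), and raised 21 and lowered 2 in aged cultures (27.5% and 26.9%). Under LPS 2 were higher and 10 lower in aged cultures (14% and 15% of all genes). In the interaction 3 were lower (2.27% of all genes). With the block 1, *Ddi2*, was also higher (adjusted p = 0.04), where 1156 of 12799 genes were called, 62.3% of them higher. The medians were -0.0061 for age without LPS, 0.35 and 0.28 for LPS in young and aged cultures, -0.057 for age under LPS and -0.093 for the interaction, beside -0.014, -0.011, 0.00051, 0.0085 and 0.019 over all genes.

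The immunoproteasome genes, which replace *Psmb5*, *Psmb6* and *Psmb7* in the barrel, rose at both ages and were lower in aged cultures under LPS. Treated and untreated young cultures did not overlap in any of the 3 genes. In aged cultures *Psmb8* overlapped, with untreated replicate 3 at 81.7 CPM above treated replicate 4 at 73.1 CPM. *Psmb9* overlapped there in the same 2 cultures (5.88 and 5.11 CPM), and *Psmb10* did not. *Psmb9*, the counterpart of *Psmb6*, had 8.97, 6.9, 8.27, 4.55 and 6.19 CPM in young untreated and 27.3, 27.1, 25.5, 14.5 and 18.2 CPM in young LPS-treated cultures (log2 fold change 1.68, SE 0.248, adjusted p = 3.03e-06). *Psmb9* had 3.23, 2.96, 5.88, 3.63 and 3.6 CPM in aged untreated and 7.3, 6.6, 15.7, 5.11 and 7.88 CPM in aged LPS-treated cultures (log2 fold change 1.14, SE 0.278, adjusted p = 0.0014), and the age difference under LPS was -1.39 (SE 0.245, adjusted p = 0.000173). *Psmb10*, the counterpart of *Psmb7*, rose by 1.41 (SE 0.11, adjusted p = 1.46e-10) in young and 0.60 (SE 0.11, adjusted p = 8.07e-05) in aged cultures, and its response differed between the ages (-0.81, SE 0.155, adjusted p = 0.00262). *Psmb8*, the counterpart of *Psmb5*, rose by 0.89 (SE 0.142, adjusted p = 8.1e-06) and 0.47 (SE 0.143, adjusted p = 0.00808) and was lower in aged cultures under LPS, at -0.75 (SE 0.141, adjusted p = 0.000327). Without LPS, *Psmb8* was at -0.33 (SE 0.143, adjusted p = 0.15) and *Psmb9* at -0.84 (SE 0.28, adjusted p = 0.0542) in aged against young cultures, and both passed with the block (adjusted p = 0.0474 and 0.00666). In these 3 genes as in *Psme1* and *Psme2*, aged replicate 3 was the highest aged culture and young replicate 4 the lowest young one under LPS.

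The transcription factors known to drive proteasome genes both rose with LPS. *Nfe2l1*, which restores proteasome genes when the proteasome is inhibited, rose by 0.77 (SE 0.0714, adjusted p = 2.6e-09) in young and 0.80 (SE 0.0713, adjusted p = 2.47e-09) in aged cultures. *Nfe2l2*, the factor of the oxidative stress response, rose from 230.2, 257, 265, 261 and 258 to 463, 528, 539, 435 and 453 CPM in young cultures (log2 fold change 0.93, SE 0.0563, adjusted p = 1.74e-12) and from 254, 235, 223, 232 and 236 to 368, 376, 376, 367 and 381 CPM in aged ones (log2 fold change 0.66, SE 0.0562, adjusted p = 1.08e-09). Treated aged and young cultures of *Nfe2l2* did not overlap (log2 fold change -0.37, SE 0.0559, adjusted p = 2.83e-05), and the responses differed (-0.27, SE 0.0791, adjusted p = 0.0459). *Ddi2*, the protease that activates NFE2L1, fell at both ages, with -0.38 (SE 0.0468, adjusted p = 2.69e-07) in young and -0.16 (SE 0.0466, adjusted p = 0.00496) in aged cultures.

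Among factors that bind the proteasome, *Zfand5*, an activator of the 26S particle, rose by 1.41 (SE 0.0642, adjusted p = 1.26e-14) in young and 0.93 (SE 0.0638, adjusted p = 2.83e-11) in aged cultures. Its response was smaller in aged cultures (-0.48, SE 0.0896, adjusted p = 0.00235). *Adrm1*, the ubiquitin receptor RPN13, rose by 0.71 (SE 0.0658, adjusted p = 2.48e-09) and 0.48 (SE 0.0654, adjusted p = 1.69e-06) with LPS, and was also higher in aged untreated cultures (0.20, SE 0.0657, adjusted p = 0.0464). *Uchl5*, the deubiquitinase that ADRM1 holds at the particle, was higher in aged cultures without LPS (0.22, SE 0.0475, adjusted p = 0.00423) and under it (0.29, SE 0.048, adjusted p = 7.17e-05), and fell with LPS in young ones (-0.16, SE 0.0479, adjusted p = 0.00541). Genes of shuttles that carry ubiquitinated proteins to the proteasome moved in both directions. *Ubqln1* rose by 0.44 (SE 0.0372, adjusted p = 5.3e-10) in young and 0.32 (SE 0.0372, adjusted p = 1.39e-07) in aged cultures, and *Rad23b* by 0.54 (SE 0.0408, adjusted p = 8.32e-11) and 0.40 (SE 0.0406, adjusted p = 1.63e-08). *Ubqln2* and *Ubqln4* fell in young cultures, with -0.48 (SE 0.0936, adjusted p = 0.000105) and -0.35 (SE 0.0455, adjusted p = 4.24e-07), and in aged ones *Ubqln4* fell as well (-0.29, SE 0.0453, adjusted p = 1.01e-05). *Ubqln2* was higher in aged than in young cultures under LPS (0.26, SE 0.0944, adjusted p = 0.0458). *Pomp*, the maturation factor of the core, rose in young cultures (0.23, SE 0.0609, adjusted p = 0.00241). In aged ones *Pomp* passed only with the block (adjusted p = 0.0417), and under LPS it was lower in aged than in young cultures (-0.24, SE 0.0611, adjusted p = 0.00414), as was the small lid subunit *Sem1* (-0.20, SE 0.0709, adjusted p = 0.0339).

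Some members share sequence or exons with other genes, and how the counting treated such reads is not given in the sources used here. Of the 50-base stretches of their transcripts, 54.1% in *Psmb5* and 49.1% in *Psma5* recur in other genes, most of them processed pseudogenes, so their levels are uncertain. In *Psmd2*, *Psmb3*, *Psma3*, *Psmc1* and *Psma4* the share was 11.6% to 17.8%, and in *Psme2* 28.3%. Exons of *Psmb7* overlap *Nek6* on the other strand, those of *Psmd13* overlap *Sirt3* on the other strand and those of *Psmc3ip* overlap *Mlx* on the other strand, and those of *Psmb5* contain *Mir686*.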

How the data were processed

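The members, classes and gene lists were chosen with earlier results of these data known, so counts over them are descriptions. Per the labels and the study's methods, the authors sequenced stranded poly(A) libraries as paired reads, aligned them with STAR 2.6.1d to GRCm38 after FastQC 0.11.8, and counted reads per gene with featureCounts 1.5.1. The deposited values are these raw counts per gene and library. Settings for strand, shared and overlapping reads are not given in the sources used here. The authors ran their comparisons with DESeq2, and no values from them were used.

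Gene names came from GENCODE vM21 by gene identifier, and 346 rows without an annotated gene (at most 0.0437% of counts) stayed out. Totals were 11371508 to 16829292 counts per library (median 14370473), and a count of 3 was worth 0.165 to 0.296 CPM, which covers counting error only. Replicates of one group differed beyond counting noise (chi-square per degree of freedom 2.31 to 24.4 over 40 pairs), so none was a duplicate.

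All 20 libraries entered 1 fit with 4 groups in edgeR 4.0.16 (R 4.3.3): genes were kept by filterByExpr (12799), scaled by TMM (factors 0.891 to 1.08) and tested with the quasi-likelihood F-test, two-sided, with Benjamini-Hochberg adjustment over all genes tested in each of 5 contrasts and a threshold of 0.05. CPM used TMM-scaled library sizes, log2 CPM a prior count of 2, and RPKM the merged exon length. The 5 contrasts share cultures. The steps were also run on simulated counts, without a batch effect and with changes larger than most age differences here. That run therefore does not bear on the small differences described above.

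The replicate number is the batch number in the labels, which pairs the cultures. Deviations from group means of cultures with the same number correlated across genes at 0.27 on average within an age, between treatments, and at 0.077 between ages (all pairs -0.21 to 0.39). The fit with this number as a block is an alternative, and its value is given where it changes a call of a member or a count of members by more than 1.5 times, and for the pathway list as counts or for single genes. Other alternatives were DESeq2 1.42.0, its size factors, library sizes alone, no filter, at least 10 counts in every library, each replicate number left out, the compared groups alone and a threshold of 0.01.

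Genes named by rule were *Psme1* to *Psme4*, *Psmf1*, the catalytic subunits, the 4 called members with the largest rise and fall in each contrast, and members called in the interaction. From the pathway list they were the immunoproteasome genes, *Pomp*, *Nfe2l1*, *Nfe2l2*, *Adrm1*, *Sem1* and the 2 called genes with the largest rise and fall per contrast. Most pathway genes are given without values per culture, and some not in every contrast. Other members named were chosen after their values were seen. Shared sequence was counted over 50-base stretches of annotated transcripts. Promoters came from RefSeq (GRCm38.p6), and both strands were searched.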

Additional observations from a re-analysis of the deposited data

Results flagged for a closer look

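Single cultures stood far from the other 4 of their group in 13 of the 180 groups of 5 tested (Dixon's criterion on CPM), where chance flags about 1 in 20. In 9 of the 13 the culture was replicate 5 and it was the highest. These were *Psma1* in young untreated cultures (165.4 CPM), *Psma3* in aged untreated (133.9 CPM) and aged LPS-treated cultures (153.6 CPM), *Psma6* in aged LPS-treated cultures (257.1 CPM) and *Psmc4* in aged untreated cultures (126.1 CPM). The others were *Psmd12* in aged untreated cultures (142.3 CPM), *Psmd13* in aged LPS-treated cultures (99.6 CPM), and *Psmd9* (37.9 CPM) and *Psmg1* (50.5 CPM) in young LPS-treated cultures. Replicate 3 was the lowest for *Psmd10* in aged LPS-treated cultures (87.3 CPM) and for *Psmd11* in aged untreated cultures (174.2 CPM), and the highest for *Psme2* in aged LPS-treated cultures (132.7 CPM). *Psmg3* was lowest in replicate 4 of the young LPS-treated cultures (36.0 CPM). The part of these cultures in the results was not tested beyond leaving out each replicate number.

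The LPS response differed between the ages by the interaction term of edgeR for 2 members, *Psmd11* (-0.31, SE 0.0744, adjusted p = 0.0139) and *Psme2* (-0.55, SE 0.164, adjusted p = 0.0474), and for 3 genes of the pathway list, *Psmb10* (-0.81, SE 0.155, adjusted p = 0.00262), *Zfand5* (-0.48, SE 0.0896, adjusted p = 0.00235) and *Nfe2l2* (-0.27, SE 0.0791, adjusted p = 0.0459). All 5 estimates, as log2 differences of the aged minus the young response, were below 0.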

How the results depend on the processing

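No called member or pathway gene named above changed sign under any alternative. Of the 89 calls of named genes, 89 passed with DESeq2, 89 passed with the replicate block, 89 passed with at least 10 counts, 88 passed with DESeq2 size factors, 83 passed with no filter, 77 passed with a threshold of 0.01 and 73 with library sizes alone. Leaving out replicates 1 to 5 in turn, 80, 73, 83, 80 and 80 passed. Outside the interaction, 81 passed and 3 did not with the compared groups alone. With the replicate number as a block, which follows the batches of the labels, 10 members in place of 6 were higher with age without LPS, 10 in place of 3 lower with age under LPS and 12 in place of 2 lower in the interaction, gains that the text gives. It also gained single calls of LPS responses named in the text and in the pathway list, and lost none. Library sizes alone as the scaling gave, in the young LPS response, 5 members lower, a median of 0.19 and a mean rise of 0.24. In the aged one they gave 17 higher and 6 lower, a median of 0.11 and a mean rise of 0.15. For age under LPS they gave 5 higher, a median of 0.045, opposite in sign to TMM, and a mean of -0.0083, and for the interaction 0 lower, a median of -0.058 and a mean of -0.089. This scaling also moves the median of all genes, as given in the text. Without a filter, 3 members were higher with age without LPS, where 1214 genes were called, 26.4% of them higher. The median of the aged LPS response was then 0.25, and far more genes were tested. DESeq2 size factors gave 6 and DESeq2 6 members lower with age under LPS, and DESeq2 5 lower in the interaction, and the cause was not tested. For age under LPS, 3663 of all genes were called with DESeq2 size factors and 3732 with DESeq2. Of these, 44.1% and 44.4% were higher, against 48.3% in the main fit. At a threshold of 0.01, 1 member was higher with age without LPS, where 622 genes in all were called, 25.1% of them higher. In the aged LPS response 1 member was lower, where 5590 genes were called, 52% of them higher. For age under LPS 2333 genes were called, and the interaction had 328 genes called and 0 members. Leaving out each replicate number in turn, with fewer cultures, gave 1 to 4 members higher and 548 to 1193 genes called for age without LPS, 1 to 2 members lower and a median of 0.25 to 0.27 in the aged LPS response, 0 to 2 higher, 3 to 5 lower and 2156 to 3563 genes called for age under LPS, and 0 to 3 lower and 189 to 697 genes called in the interaction. The lowest count of genes called was without replicate 2 in each of these 3 age comparisons. The log2 differences that changed sign were all of genes not called in that comparison. In age without LPS, *Psmb5* was at 0.00021 with DESeq2 size factors, 0.015 with library sizes alone, 0.0079 with the compared groups alone and -0.031 to 0.0050 with a replicate number left out, and *Psmb6* was at -0.022 to 0.051 with a replicate number left out. In the young LPS response, *Psmg3* was at 0.010 with DESeq2 size factors, 0.0059 with DESeq2 and -0.030 to 0.020 with a replicate number left out, *Psmb1* was at -0.14 with library sizes alone, *Psmc3* was at -0.094 with library sizes alone, *Psmd13* was at -0.11 with library sizes alone, *Psme4* was at -0.12 with library sizes alone, and *Psmg4* was at -0.17 with library sizes alone. In the aged LPS response, *Pomp* was at -0.061 with library sizes alone, *Psma1* was at -0.0040 with library sizes alone, *Psma3* was at -0.00047 with library sizes alone, *Psma7* was at -0.013 with library sizes alone, *Psmb1* was at -0.12 with library sizes alone, *Psmc3* was at -0.031 with library sizes alone, *Psmd13* was at -0.12 with library sizes alone, *Psmg4* was at -0.11 with library sizes alone and -0.011 to 0.094 with a replicate number left out, and *Psme4* was at -0.036 to 0.011 with a replicate number left out. In age under LPS, *Psmb5* was at 0.079 with library sizes alone, 0.0083 with no filter, 0.0044 with the compared groups alone and -0.021 to 0.011 with a replicate number left out, *Psme4* was at 0.071 with library sizes alone, 0.0013 with no filter and -0.082 to 0.025 with a replicate number left out, and *Psmf1* was at 0.077 with library sizes alone, 0.0072 with no filter, 0.0029 with the compared groups alone and -0.015 to 0.019 with a replicate number left out. In the interaction, *Psmb5* was at -0.017 with DESeq2 size factors, -0.0029 with at least 10 counts, -0.014 with DESeq2 and -0.019 to 0.041 with a replicate number left out, and *Psme3* was at 0.027 with library sizes alone. Depth limits mainly the low members: at 3 counts *Psma8* and *Psmb11* were not detectable, and the levels of *Psme2b* and *Psmc3ip* rest on few counts.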
